A study of Homo sapiens with 4 samples.

Results

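The genes for the proteins of the cytosolic ribosome were described in TE5, a cell line derived from squamous cell carcinoma of the esophagus, after depletion of NUP153, a protein of the nuclear pore. Members were the rows of the deposited table whose symbol is RPL or RPS followed by a number, with or without the endings A, X, L, L1 or AL, together with RPLP0, RPLP1, RPLP2 and RPSA, and processed pseudogenes were left out. This gave 85 of 56657 rows, of which 77 were core ribosomal protein genes (31 of the small subunit, 40S, and 46 of the large subunit, 60S) and 8 were paralogs whose symbol ends in L or L1. Of the 85 members, 84 passed the filter on low counts and were tested. RPL10L, a paralog known to be made in the testis, was listed at 0 in all libraries.

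The comparison was between 2 kinds of TE5 cells, with 2 libraries each: cells with hairpin RNA against NUP153 (shNUP153, genotype given as NUP153 knockdown) and cells with a control hairpin (shControl, genotype given as WT). All carried a hairpin brought in by lentivirus, were selected with puromycin and were collected at day 7. The shNUP153 libraries are described as g1 and g2, and the labels do not tell whether these were separate hairpins or separate cultures, so p-values measure the spread between these libraries, which may be technical. NUP153 measured 67.9 and 81.9 CPM in the shNUP153 libraries, against 149 and 142 CPM in the shControl libraries, so the target was lower in both and still present. CPM here are counts scaled to a common library size with TMM correction. The libraries held 22606593 to 27396268 counts. Of 8 squamous markers 7 exceeded 5 CPM in every library, with KRT14 under 1 CPM, and the list summed to 2444 and 2451 CPM in shNUP153, against 1998 and 2009 CPM in shControl. KRT17 carried this difference, with 1252 and 1238 CPM in shNUP153, against 745 and 724 CPM in shControl, while KRT5 had 13.8 and 16.8 CPM, against 23.7 and 25.1 CPM, and SOX2 had 37.6 and 39.4 CPM, against 48.2 and 49.4 CPM. Markers of blood summed to under 1 CPM in every library, and those of endothelium to 25.1 and 24.0 CPM in shNUP153, against 12.2 and 11.1 CPM in shControl. Nearly all of the endothelium sum was CDH5, with PECAM1 under 1 CPM in every library. Fibroblast markers summed to 17.3 and 17.4 CPM in shNUP153, against 14.8 and 13.6 CPM in shControl, mostly COL1A1. Those of intestinal epithelium summed to 17.4 and 19.8 CPM in shNUP153, against 20.4 and 17.7 CPM in shControl, nearly all of it CDX2. The part of these marker differences in the results was not tested.

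The cytosolic ribosome joins a 40S subunit, which reads the mRNA, to a 60S subunit, which forms the peptide bond. Each protein is present in about the same number as the others, and most of the mRNAs begin with a C and a run of pyrimidines, the terminal oligopyrimidine (TOP) start, through which mTORC1 and LARP1 are known to control their translation together. Some proteins have a second gene in the genome, a paralog that is often made in few tissues or in tumours. The reads of these short, abundant mRNAs are easily shared with processed pseudogenes and with read-through genes.

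The start sites of members that the results turn on are shown here because the shared TOP start is the best known feature of the family and the naming pattern did not use it. Each is 30 bases of RefSeq sequence on GRCh38.p14, from 10 bases before the annotated start to 20 bases from it on, read 5′ to 3′ on the gene's strand. Capitals mark a TOP-like run, defined as a C followed by at least 4 letters that are each C or T, with the C at most 5 bases from the start on either side.
RPS13, chr11:17077648-17077677, minus strand: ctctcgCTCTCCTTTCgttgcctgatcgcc
RPS29, chr14:49598691-49598720, minus strand: agcgcgcagctggcagcggtggttgtttct
RPS16, chr19:39435930-39435959, minus strand: ccctagCTTTCCTTTTCCggttgcggcgcc
RPSA, chr3:39406710-39406739, plus strand: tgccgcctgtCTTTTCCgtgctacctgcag
RPS24, chr10:78033853-78033882, plus strand: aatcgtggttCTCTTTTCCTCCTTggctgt
RPL6, chr12:112411423-112411452, minus strand: gtatcctcagtgaatcagaaccagaaaaag
RPL34, chr4:108620566-108620595, plus strand: cttttttCTTCCTCTTCCggggacgttgtc
RPS12, chr6:132814559-132814588, plus strand: cggatgaggCCTCTTTCCCTgccgccgccg
RPL31, chr2:101002279-101002308, plus strand: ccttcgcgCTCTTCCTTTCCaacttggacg
RPS27, chr1:153990752-153990781, plus strand: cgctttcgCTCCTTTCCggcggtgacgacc
RPS27L, chr15:63157458-63157487, minus strand: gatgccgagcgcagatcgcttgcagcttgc
RPL22, chr1:6199576-6199605, minus strand: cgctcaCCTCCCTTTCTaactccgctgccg
RPL22L1, chr3:170870176-170870205, minus strand: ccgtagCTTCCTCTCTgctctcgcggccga

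The windows of RPS13, RPS16, RPSA, RPS24 and RPL34, which were called lower, hold the run, and those of RPS29 and RPL6, also called lower, do not. The windows of RPS12 and RPL31, which were not called, hold it too. RPS27 has it and its paralog RPS27L does not, whereas both RPL22 and RPL22L1 have it. Windows of 62 core genes were used, and 50 of them (80.6%) hold a TOP-like run, against 21.1% of the 27305 promoters of the table. Among the 6 paralogs with a window, 2 hold it. Core genes with the run were called lower in 33 of 50 cases (66%) and those without it in 10 of 12 (83.3%). Of all core genes 66.2% were called lower, and of all tested genes 17.4%. RefSeq gives 1 start per gene, so a run farther from that start is not counted here.

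Most core ribosomal protein genes were slightly lower in shNUP153. By edgeR's quasi-likelihood test, 51 of 77 (66.2%) were lower and 0 higher at an adjusted p under 0.05, where 17.4% of all 16817 tested genes were lower and 15% higher (32.4% in either direction). The other 26 core genes were not called, and 7 of the 77 had a positive log2 fold change. Genes of this abundance leaned downward as a whole: of 1376 other tested genes between 144 and 1215 CPM, the 10th and 90th percentiles of the core genes, 42.3% were lower and 16.9% higher (59.2% in either direction). Within that range 43 of 61 core genes were lower (70.5%). The median log2 fold change was -0.16 over the core genes (10.7% lower), -0.07 over the other genes of like abundance and 0.005 over all tested genes. In 63 core genes both shNUP153 libraries lay below both shControl libraries, and in 1, RPL17, above. Of all tested genes 32.2% lay below in this way and 32.2% above, and of the genes of like abundance 54.5% below and 26.4% above. RNA was taken from whole cultures, so a small loss in every cell and a larger loss in some of the cells cannot be told apart.

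**Figure D1:**
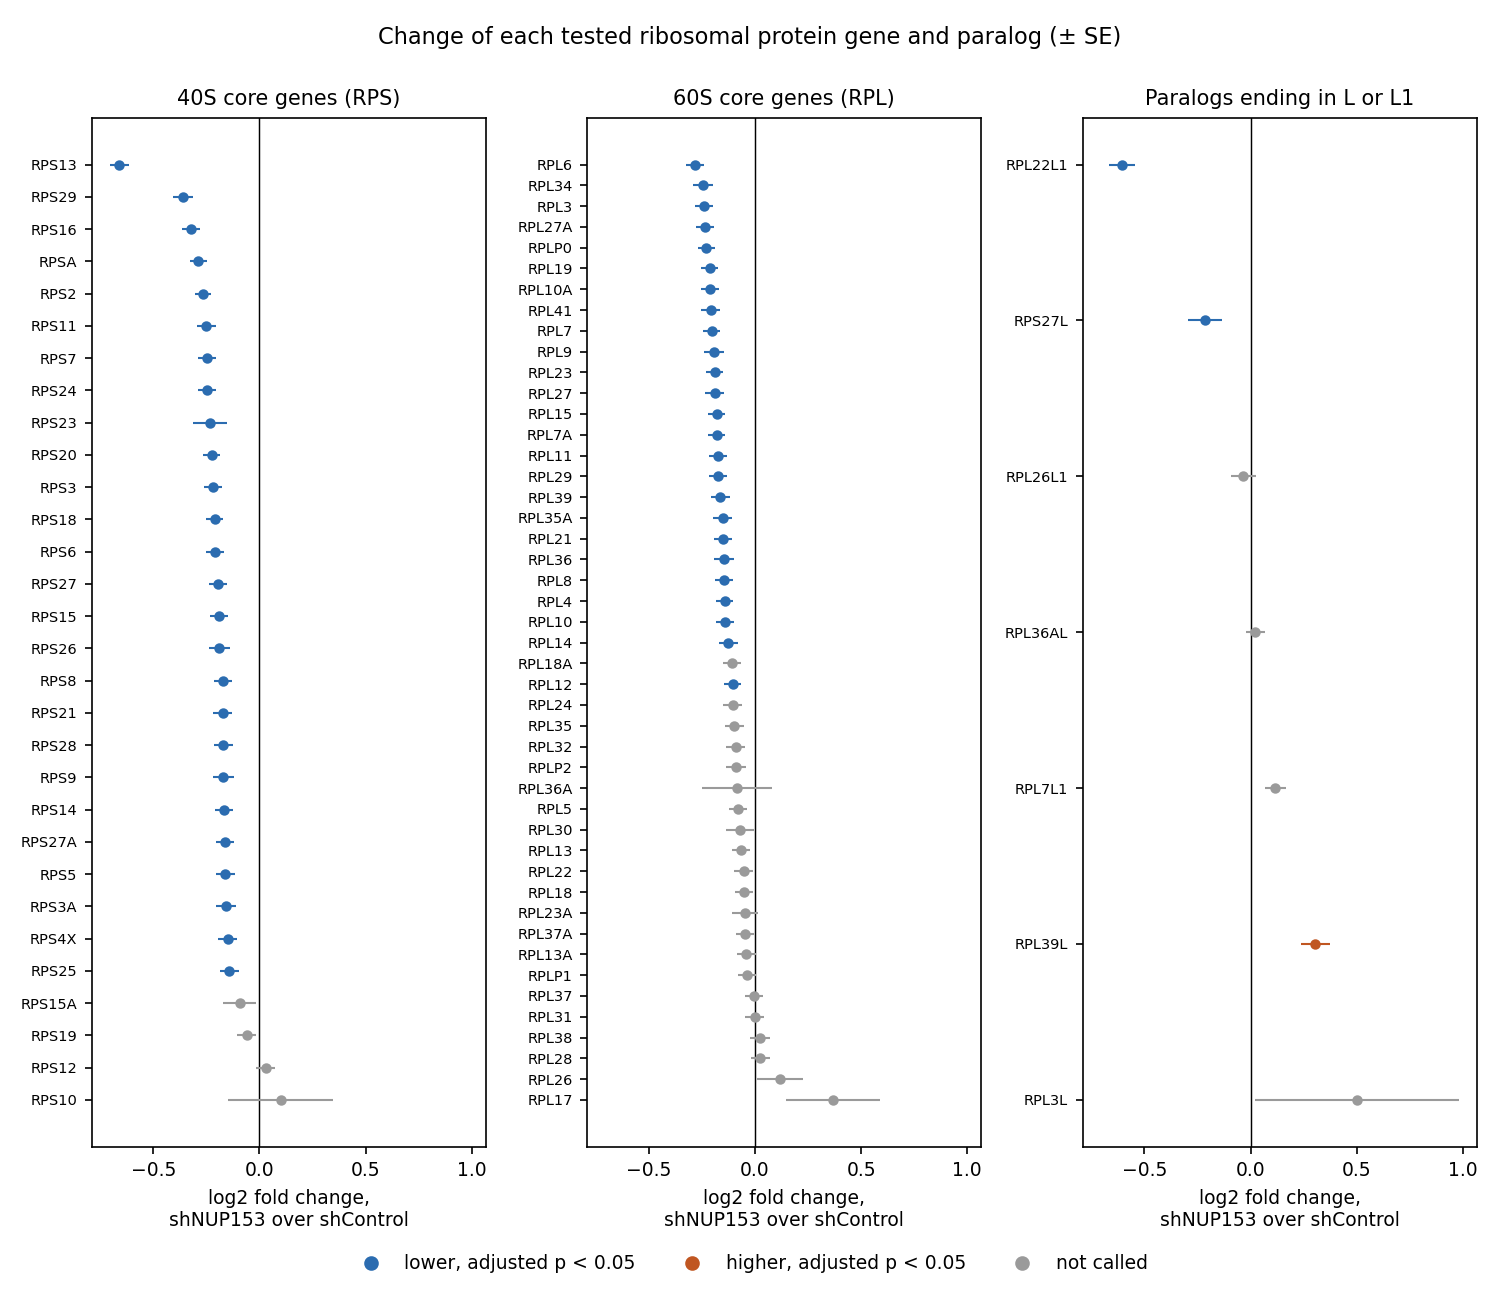
Log2 fold change of the tested members, shNUP153 over shControl, with its standard error, for core genes of the 40S subunit (1 uncalled gene is not shown), 46 of the 60S subunit and 7 paralogs. Blue points were called lower, the 1 orange point (RPL39L) higher and grey points not called. Nearly all core genes sit just left of 0, with RPS13 far to the left of the rest.

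The number of calls depended on scaling and on the libraries used. With total-count scaling 33 core genes were called lower, beside 12.6% of all tested genes and 29.7% of those of like abundance. Without shNUP153 replicate 1 the count was 29, beside 10.1% and 28.6%. With DESeq2 it was 48, beside 12.5% and 38.1%. The core median was 0.17 below that of all tested genes, a distance that a change of scaling cannot move. It was 0.14 with a filter at 5 CPM on average and 0.20 with no filter on low counts. In 26 core genes the call held under each of the 13 alternatives, among them RPS13, RPS29, RPS16, RPSA, RPS2, RPS24, RPL6, RPL3, RPLP0, RPL27A, RPL19 and RPL34.

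**Figure D2:**
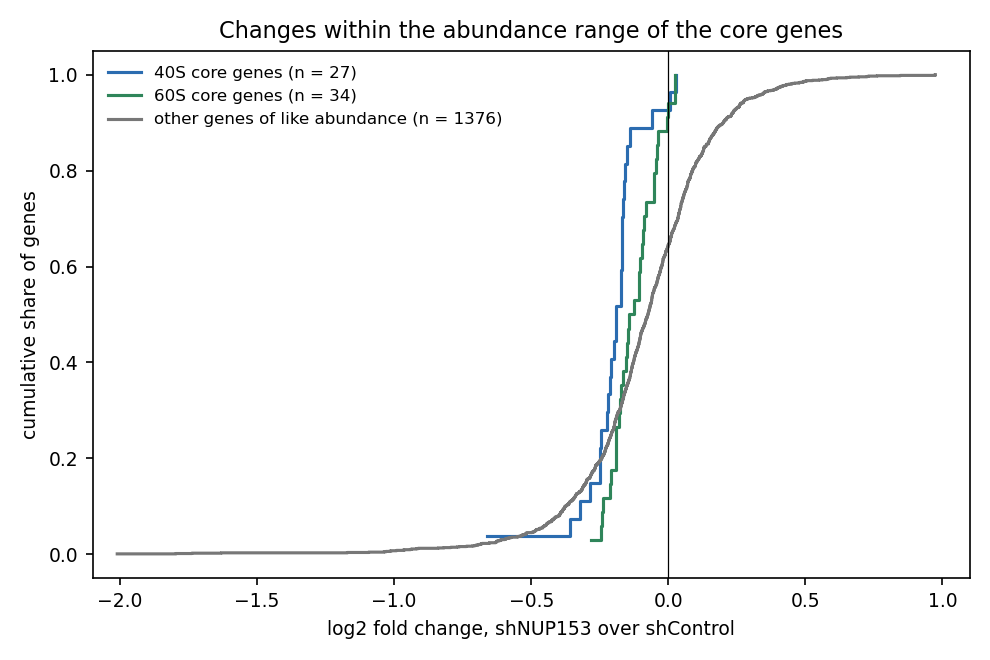
Cumulative share of genes by log2 fold change, shNUP153 over shControl, for the 27 core genes of the 40S subunit and the 34 of the 60S subunit within the 10th to 90th percentile of core abundance, and for 1376 other tested genes in that range. The core curves are steep, with medians left of the grey curve's -0.07, and the grey curve spreads farther both ways.

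Calls were more frequent among genes of the 40S subunit. Genes of the 40S subunit were lower in 26 of 31 cases (83.9%, median -0.19), those of the 60S subunit in 25 of 46 (54.3%, median -0.13). Between 144 and 1215 CPM these were 24 of 27 (88.9%) and 19 of 34 (55.9%), beside 42.3% of other genes in that range. Among all tested genes 17.4% were lower. Summed over core genes, 40S counts were 1.70% of all counts in each shNUP153 library, against 1.86% and 1.90% in the shControl libraries. The 60S sum was 2.99% in each shNUP153 library, against 3.13% and 3.19% in shControl. The ratio of 40S to 60S counts was 0.569 and 0.567 in shNUP153, against 0.596 and 0.597 in shControl. This ratio does not depend on library scaling, and the groups did not overlap. With 2 libraries against 2, an exact two-sided permutation test cannot give a p below 0.333, which is the value for all 3 of these measures, so the difference between subunits could not pass a test. Without RPS2, the most abundant, and RPS13, the largest fall, left out after their values were seen, the ratio was 0.468 and 0.469 in shNUP153, against 0.486 and 0.485 in shControl, and the groups again did not overlap.

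**Figure D3:**
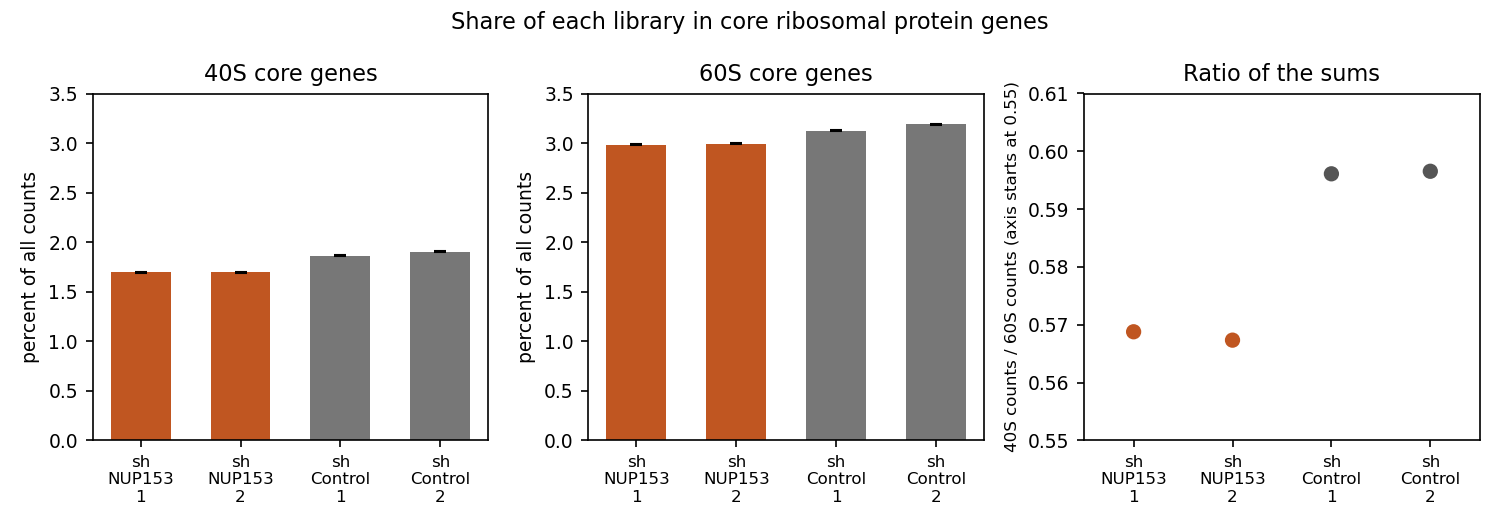
Share of each library's counts in core genes of the 40S and 60S subunit, in percent, with exact 95% binomial intervals that cover counting error only, and the ratio of the sums on an axis that starts at 0.55. Both shNUP153 libraries are below both shControl libraries in each panel, and the ratio is 0.569 and 0.567, against 0.596 and 0.597.

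Among 40S genes RPS13, which codes for the protein uS15, stood apart. It measured 187 and 190.2 CPM in shNUP153, against 299 and 296 CPM in shControl, a 1.58-fold fall (log2 fold change -0.66, SE 0.05, edgeR adjusted p = 8.23e-14). Replicates differed by a few CPM and the groups by over 100, and no other core gene fell by as much as 0.4. In GENCODE 29 its exons share 58 bp on the same strand with PIK3C2A, which was not called (log2 fold change -0.08, adjusted p = 0.363).

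The next in order were RPS29, RPS16 and RPSA. RPS29, a zinc-binding protein of the 40S head, measured 449 and 481 CPM in shNUP153, against 571 and 621 CPM in shControl (log2 fold change -0.36, SE 0.05, adjusted p = 1.36e-07). RPS16 measured 382 and 397 CPM, against 475 and 498 CPM (-0.32, SE 0.04, adjusted p = 4.56e-07). RPSA, also known as the laminin receptor, measured 692 and 691 CPM, against 845 and 843 CPM (-0.29, SE 0.04, adjusted p = 1.00e-06). In all of them the lowest shControl library was above the highest shNUP153 library. RPS29 shares 468 bp of exon with LRR1 on the opposite strand, and no source used here says whether counting used strand.

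RPS2, near the mRNA entry channel, was the most abundant member at 2750.2 and 2714 CPM in shNUP153, against 3222 and 3347 CPM in shControl (-0.27, SE 0.04, adjusted p = 1.34e-06). Rows of RPS2 pseudogenes held 13597 and 13575 counts in the shNUP153 libraries, against 12697 and 16716 counts in the shControl libraries, not corrected for depth. With pseudogene counts added RPS2 was still called lower. RPS24 measured 667 and 678 CPM, against 801 and 794 CPM (-0.25, SE 0.04, adjusted p = 1.43e-05). Among the 5 genes of the 40S subunit that were not called were RPS15A (-0.09, SE 0.08), RPS19 (-0.06, SE 0.04), RPS12 (0.03, SE 0.04) and RPS10 (0.10, SE 0.25).

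**Figure D4:**
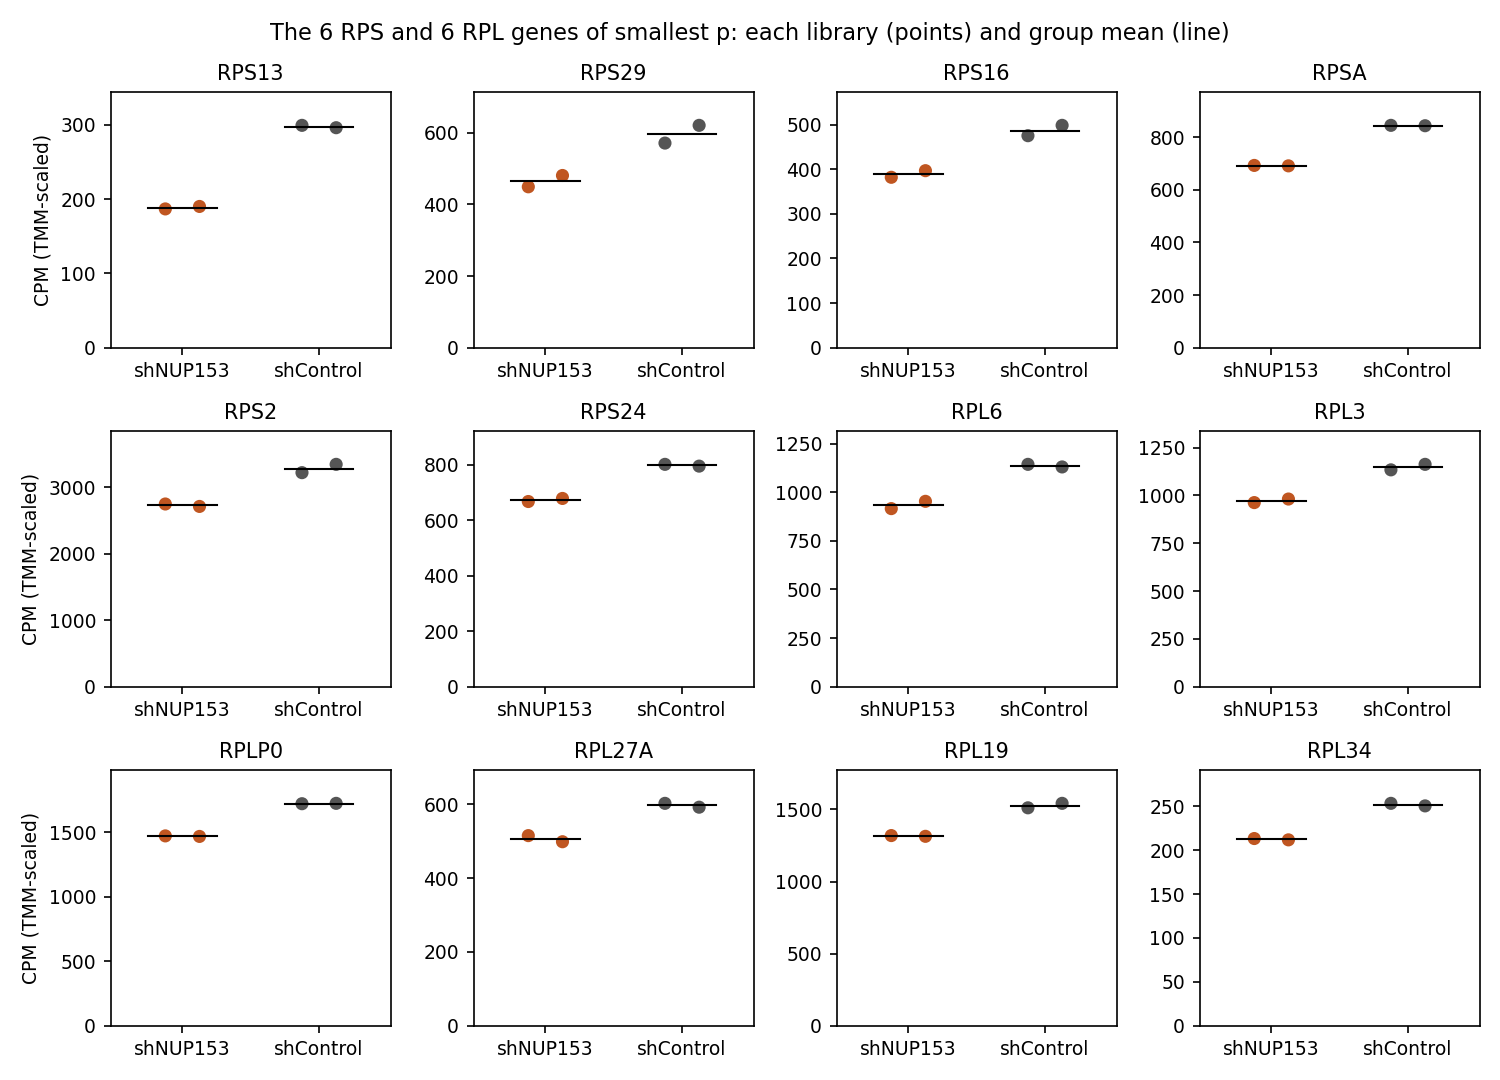
TMM-scaled CPM in each library (points) and the group mean (line) for the 6 RPS and the 6 RPL genes of smallest p, on axes from 0. In each panel both shNUP153 points lie below both shControl points, and the gap is widest as a fold for RPS13, at 187 and 190.2 CPM in shNUP153, against 299 and 296 CPM in shControl.

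Of the 60S genes 25 were called lower and 21 were not called, and the log2 fold changes ran from -0.28 to 0.37. RPL6 had the smallest p and measured 916 and 953 CPM in shNUP153, against 1144 and 1130.2 CPM in shControl (-0.28, SE 0.04, adjusted p = 1.22e-06). RPL3, close to the site of peptide bond formation, measured 963 and 981 CPM, against 1134 and 1163 CPM (-0.24, SE 0.04, adjusted p = 1.52e-05). RPL27A measured 515 and 498 CPM, against 602 and 592 CPM (-0.24, SE 0.04, adjusted p = 3.97e-05). These 3 did not overlap between groups. RPL19 measured 1319 and 1314 CPM in shNUP153, against 1512 and 1543 CPM in shControl (-0.21, SE 0.04, adjusted p = 6.02e-05). RPL34 measured 213 and 212 CPM, against 254 and 251 CPM (-0.25, SE 0.05, adjusted p = 6.78e-05). At the other end RPL31 (-0.002, SE 0.05), RPL37 (-0.004, SE 0.04), RPL38 (0.02, SE 0.05) and RPL28 (0.02, SE 0.04), chosen after their values were seen, had libraries that overlapped between groups. RPL6 shares 111 bp of exon with PTPN11 on the opposite strand.

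The acidic stalk, which recruits the elongation factors, was uneven. RPLP0, its base, measured 1473 and 1469 CPM in shNUP153, against 1723 and 1725 CPM in shControl (-0.23, SE 0.04, adjusted p = 1.96e-05). RPL12, beside the stalk, measured 1136 and 1128 CPM, against 1229.8 and 1205 CPM (-0.11, SE 0.04, adjusted p = 0.0430), a call lost in 7 of the 13 alternatives (adjusted p up to 0.468), among them DESeq2 and the fits that omit shControl replicate 1 or 1 of the shNUP153 libraries. The acidic proteins bound to RPLP0 were not called. RPLP1 measured 966 and 1000.2 CPM, against 973 and 1046 CPM (-0.04, SE 0.04), with overlapping groups and a sign that turned under upper-quartile and total-count scaling. RPLP2 measured 357 and 356 CPM, against 362 and 397 CPM (-0.09, SE 0.05, adjusted p = 0.141; 0.00362 without shControl replicate 1).

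RPL5 and RPL11 carry the 5S rRNA and are known to bind MDM2. RPL11 measured 537 and 548 CPM in shNUP153, against 612 and 613 CPM in shControl (-0.17, SE 0.04, adjusted p = 0.00143; 0.0514 without shNUP153 replicate 1). RPL5 measured 667 and 708 CPM, against 721 and 734 CPM (-0.08, SE 0.04, adjusted p = 0.149). Neither overlapped between groups. MDM2 itself and CDKN1A, an inhibitor of the cell cycle, were called higher. MDM2 measured 39.6 and 38.8 CPM, against 34.9 and 32.9 CPM (0.21, adjusted p = 0.0227; the call was lost in 5 of 13 alternatives, with 0.201 without shNUP153 replicate 1, 0.119 without shNUP153 replicate 2 and 0.145 without shControl replicate 2), and CDKN1A 283 and 269 CPM, against 139 and 142 CPM (0.97, adjusted p = 7.53e-18).

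By place in the ribosome, all 5 genes of the 40S mRNA exit site (RPSA, RPS3A, RPS14, RPS26, RPS28) were lower, as were 4 of 6 of the 40S beak and 2 of 7 at the rim of the peptide exit tunnel, RPL19 and RPL39. These counts stand beside 83.9% of the 40S genes, 54.3% of the 60S genes and 42.3% of other genes of like abundance called lower. The median was -0.17 for the exit site, -0.19 for the beak and -0.05 for the tunnel rim. The rim list includes RPL17 and RPL26, and the beak list RPS10, genes with fewer than 1000 counts in every library. By age of the protein, 14 of 15 genes of the 40S subunit whose protein has a bacterial counterpart were lower (median -0.23), against 12 of 16 without one (median -0.17). In the 60S subunit these were 12 of 18 (median -0.14) and 13 of 28 (median -0.11). Of 11 ribosomal genes in which variants are known to cause Diamond-Blackfan anaemia, 6 were lower (54.5%), with a median of -0.15, near the 66.2% and -0.16 of all core genes. These lists overlap and share genes, and no difference between them was tested.

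Across the 77 core genes, which share the same libraries, the log2 fold change had a Spearman rho of -0.31 with abundance, -0.10 with transcript length and 0.07 with GC content. Core genes that hold a snoRNA gene in their body were lower in 17 of 28 cases (60.7%, median -0.15), against 34 of 49 of the others (69.4%, median -0.17). Both shares are near the 66.2% of all core genes called lower, beside 17.4% of all tested genes. Among the 71 core genes with 1000 or more counts in every library, the rho with abundance was -0.23. These values are descriptions.

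Levels per length spread widely. With the median length of the coding transcripts in GENCODE 29, RPS2 had 2957 FPKM (CPM per kilobase of transcript) in shNUP153, against 3555 FPKM in shControl, and RPL12 had 2268 FPKM, against 2440.04 FPKM. In all, 6 core genes held fewer than 1000 counts in a library and lay far below the rest. In shNUP153 they ran from RPS10 at 3.60 FPKM to RPS15A at 29.6 FPKM. In shControl they ran from RPL17 at 3.34 FPKM to RPS23 at 34.2 FPKM, with RPS10 at 3.38 FPKM and RPS15A at 31.6 FPKM. The others were RPL36A and RPL26. Exons of RPS10, RPL17 and RPL36A lie on the same strand within the read-through genes RPS10-NUDT3, RPL17-C18orf32 and RPL36A-HNRNPH2, which are listed at 0 in all 4 libraries, and RPL26 and RPS15A share exons with genes listed at 0 or 1 count. The effect of these overlaps on the counts was not tested. Without the 6 genes the core median was -0.17 and 50 of 71 were lower.

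Of 7 paralogs tested, 2 were lower, 1 was higher and the median was 0.02. The shares, 28.6% lower and 14.3% higher, stand beside 17.4% and 15% of all tested genes, and 1 of the 2 lower calls, that of RPS27L, was lost in most alternatives. Their summed counts were 0.0760% and 0.0758% of all counts in shNUP153, against 0.0722% and 0.0728% in shControl. RPL22L1 fell and its partner RPL22 was not called. RPL22L1, whose product can replace RPL22 and which RPL22 is known to hold down in mice, measured 46.8 and 48.0 CPM in shNUP153, against 71.5 and 73.0 CPM in shControl (log2 fold change -0.61, SE 0.06, edgeR adjusted p = 6.11e-10). RPL22 measured 263 and 273 CPM, against 276 and 280.1 CPM (-0.05, SE 0.05, adjusted p = 0.405). The ratio of RPL22L1 to RPL22 counts was 0.178 and 0.176 in shNUP153, against 0.259 and 0.261 in shControl. Per length, RPL22L1 stood at 27.5% ± 0.195 of RPL22 in shNUP153, against 40.3% ± 0.211 in shControl (SD, n = 2 each). Among all members this fall came second in size to that of RPS13.

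RPL39L, a paralog known from testis and from tumours, went the other way. It measured 49.0 and 53.7 CPM in shNUP153, against 40.1 and 42.9 CPM in shControl (0.30, SE 0.07, adjusted p = 0.000617; 0.0752 without shNUP153 replicate 2). RPL39, at the end of the exit tunnel, measured 404 and 389 CPM, against 443 and 445 CPM (-0.16, SE 0.04, adjusted p = 0.00369; 0.117 without shNUP153 replicate 2 and 0.0777 with total-count scaling). The ratio of RPL39L to RPL39 was 0.121 and 0.138 in shNUP153, against 0.0905 and 0.0963 in shControl. The transcripts share an exact stretch of 67 bases, and reads within it could be counted for either gene.

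RPL7L1 was at 205 and 212 CPM in shNUP153, against 195 and 189 CPM in shControl (0.12, SE 0.05, adjusted p = 0.0570), and passed the test with total-count scaling (0.18, adjusted p = 0.00262), upper-quartile scaling (adjusted p = 0.00830), a filter at 5 CPM on average (0.0134) and without shControl replicate 1 (0.0261). RPL7 measured 1233 and 1242 CPM, against 1437 and 1411 CPM (-0.20, SE 0.04, adjusted p = 0.000135). The ratio of RPL7L1 to RPL7 was 0.166 and 0.171, against 0.136 and 0.134. RPS27L measured 24.3 and 23.4 CPM, against 27.9 and 27.5 CPM (-0.21, SE 0.08, adjusted p = 0.0401), and its call was lost in 9 of the 13 alternatives (adjusted p 0.0599 to 0.246), the 4 fits without a library among them. RPS27 measured 500.0 and 489 CPM, against 561 and 572 CPM (-0.20, SE 0.04, adjusted p = 0.000433). Their ratio was 0.0487 and 0.0478 in shNUP153, against 0.0496 and 0.0481 in shControl, with overlapping groups.

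**Figure D5:**
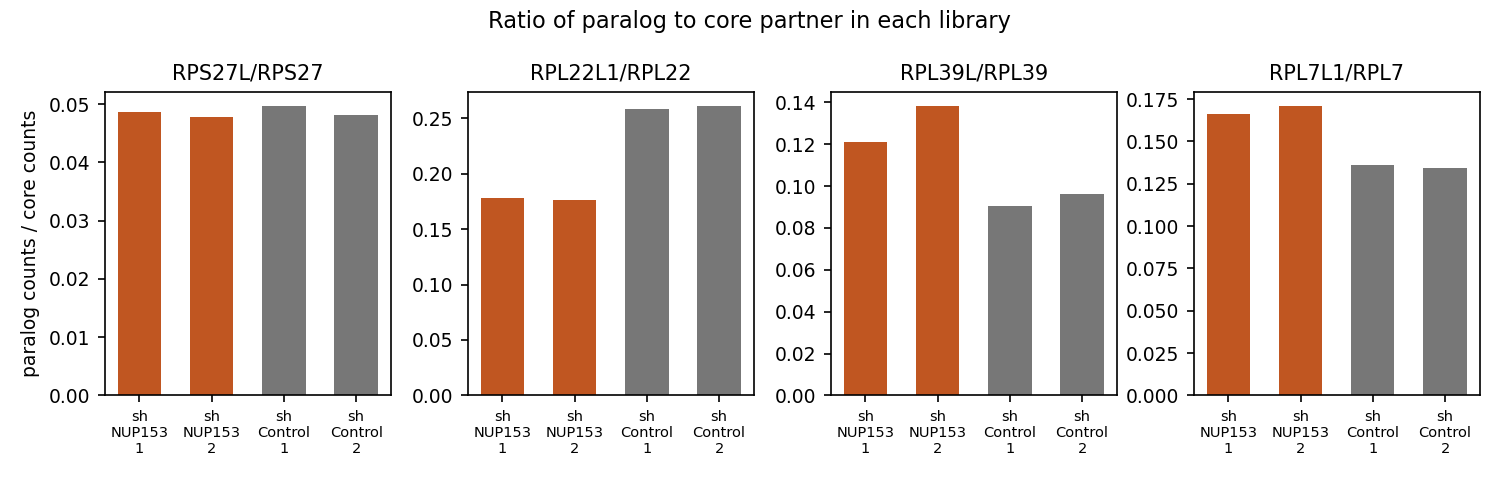
Counts of a paralog over counts of its core partner in each library, on axes from 0, for RPS27L/RPS27, RPL22L1/RPL22, RPL39L/RPL39 and RPL7L1/RPL7. The RPL22L1 bars are lower in both shNUP153 libraries, the RPL39L and RPL7L1 bars higher, and the RPS27L bars overlap.

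The other paralogs hardly differed or were too low to read. RPL26L1 measured 63.7 and 63.8 CPM in shNUP153, against 64.4 and 66.1 CPM in shControl (-0.03, SE 0.06), a sign that turned under upper-quartile and total-count scaling. RPL36AL measured 350.3 and 346 CPM, against 336 and 349.5 CPM (0.02, SE 0.04), with overlapping groups. Their partners RPL26 (0.12, SE 0.11) and RPL36A (-0.09, SE 0.16) are among the genes with few counts named above, so a ratio to them says little. RPL3L, a gene of heart and skeletal muscle, had 15 and 14 counts in shNUP153, against 11 and 9 in shControl. That is under 1 CPM in every library. RPL10, the partner of RPL10L, fell by 0.14 (SE 0.04, adjusted p = 0.00914; 0.158 with total-count scaling, 0.0708 with upper-quartile scaling, 0.135 without shNUP153 replicate 1 and 0.0560 without shNUP153 replicate 2).

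For each of the 4 ratios whose groups did not overlap (RPL22L1/RPL22, RPL39L/RPL39, RPL7L1/RPL7 and RPL3L/RPL3), the exact two-sided permutation p was 0.333, the smallest that 2 against 2 libraries allow.

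The naming pattern misses proteins of the same ribosome with other symbols, among them RACK1 and FAU. RACK1, a scaffold on the 40S head, measured 1233 and 1218 CPM in shNUP153, against 1476 and 1444 CPM in shControl (-0.25, adjusted p = 5.37e-06). FAU, made as a fusion with a ubiquitin-like protein, measured 284 and 299 CPM, against 259 and 286 CPM (0.09, adjusted p = 0.142). FAU passed upward under upper-quartile and total-count scaling (adjusted p = 0.0267 and 0.00762), with the 5 CPM filter (0.0415) and without shControl replicate 2 (0.00441). FAU shares exons with SYVN1 and MRPL49.

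Other mRNAs known for a TOP start were mostly lower. Of 17 tested, 12 were lower (70.6%) and 2 higher (11.8%), with a median of -0.20. These shares stand beside 17.4% lower and 15% higher among all tested genes. Some of the 12 lower calls were lost in alternatives, each of these in 1 to 4 of the 13. NPM1 measured 1873 and 1925 CPM in shNUP153, against 2380 and 2339 CPM in shControl (-0.31). The elongation factor gene EEF1A1 measured 4909 and 5025 CPM, against 6133 and 5955 CPM (-0.28), and EEF1D fell by 0.33. The genes called higher, named after their values were seen, were EIF4A2 (0.23) and TPT1 (0.14; adjusted p = 0.151 without shNUP153 replicate 1 and 0.116 without shNUP153 replicate 2). EEF1G is listed at 0 in all libraries. Of other tested genes between 144 and 1215 CPM, 45.9% with the run were lower (123 of 268) and 42.9% without it (358 of 834). NPM1, EEF1A1 and EEF1D lie outside that range.

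Calls among genes that act on ribosomal proteins or their mRNAs differed between lists. Their counts are read against the 15% of all tested genes that were higher and the 17.4% that were lower (32.4% in either direction). Of 12 genes of the mTOR, LARP1 and TSC system 5 were higher (41.7%) and 0 lower (median 0.09). Those of smallest p by edgeR were RICTOR (0.31, adjusted p = 0.00113), EIF4EBP1 (0.24, adjusted p = 0.00726) and TSC2 (0.16, adjusted p = 0.0254). RICTOR is a subunit of mTORC2, not of mTORC1. RPTOR, a subunit of mTORC1, had the 1 negative value and was not called (-0.11, edgeR adjusted p = 0.158). The call of RICTOR held in each alternative, that of EIF4EBP1 did not in the fit omitting shNUP153 replicate 1 (adjusted p = 0.290), and that of TSC2 was lost in 5 of 13, among them the fits without shNUP153 replicate 1 (0.114), shNUP153 replicate 2 (0.277) or shControl replicate 1 (0.143). The other called genes, TSC1 (0.19) and LARP1 (0.11), lost their calls in 5 and 7 of 13 alternatives, among them the fits that omit shNUP153 replicate 1 (adjusted p = 0.184 for TSC1 and 0.361 for LARP1), shNUP153 replicate 2 (0.240 for TSC1 and 0.142 for LARP1) or shControl replicate 2 (0.235 for TSC1 and 0.111 for LARP1). Of 15 genes for chaperones and assembly factors of single ribosomal proteins, 3 were higher, RSL24D1 (0.30), RPS19BP1 (0.22) and BYSL (0.17), and 2 lower, BCCIP (-0.18) and MRTO4 (-0.18), shares of 20% and 13.3% that are near those of all tested genes. Of these, RSL24D1 kept its call in each alternative. Without shNUP153 replicate 1 the adjusted p was 0.144 for RPS19BP1, 0.170 for BYSL, 0.114 for BCCIP and 0.118 for MRTO4. Without shNUP153 replicate 2 it was 0.218 for BYSL and 0.0684 for MRTO4, and without shControl replicate 1 it was 0.220 for BYSL. Of 13 genes of ribosome quality control 5 were higher (38.5%), among them the ubiquitin ligase gene ZNF598 (0.23) and ASCC2 (0.24). Another 4 were lower (30.8%), among them ASCC3 (-0.19). Each of these calls, higher and lower, was lost in 1 to 8 of the 13 alternatives. With total-count scaling the edgeR adjusted p of ASCC3 was 0.075. Without shNUP153 replicate 1 the adjusted p was 0.0580 for ZNF598 and 0.140 for ASCC2. For ASCC3 it was 0.229 without shNUP153 replicate 2 and 0.109 without shControl replicate 1.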

How the data were processed

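RNA-seq counts of 4 TE5 libraries (2 shNUP153, 2 shControl) were analysed. The deposited table calls itself FPKM, but its 4 library columns hold whole numbers with different totals, so they were used as raw counts as the authors deposited them. A log2 ratio column in the authors' deposited table, made without correction for library size, entered no test (RPS13: -0.64), and a column of p-values was not used. The submitters' processing notes name kallisto, DESeq2, Bowtie2, deepTools and hg19; no source used here gives the counting tool, its annotation or its use of strand. Genes were kept by filterByExpr (minimum count 10, minimum total 15) and fitted across 16817 genes with edgeR 4.0.16 in R 4.3.3 (TMM, quasi-likelihood test, two-sided, Benjamini-Hochberg over all tested genes, threshold 0.05, 2 residual degrees of freedom per gene). SE is the log2 fold change over the root of F. The 13 alternatives included DESeq2 1.42.0 and limma trend (limma 3.58.1). In edgeR, scaling was by total count, by upper quartile or by TMM factors computed without the members. Others used no filter on low counts, a filter at 5 CPM on average, a replicate block or added pseudogene counts. The rest each left out 1 of the 4 libraries. The procedure was tested on simulated counts. Members and lists were chosen with earlier results of these data known. Named were the 6 RPS and 6 RPL genes of smallest p, members called higher, paralogs with partners, the stalk and 5S genes, RACK1, FAU and up to 3 called genes of each other list; further uncalled genes were named after their values were seen. Lengths, exon overlaps and snoRNAs come from GENCODE 29 (GRCh38), start sites from RefSeq. Per gene, replicates differed by a chi-square of 3.09 (shNUP153) and 3.57 (shControl), above sampling noise. Some genes are not reported here by name. Intervals cover counting error only.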

Additional observations from a re-analysis of the deposited data

How the results depend on the processing

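Of 77 core genes, 51 were called lower in the reported fit. The count was 33 with total-count scaling and 29 to 55 without 1 library, lowest without shNUP153 replicate 1, and no core gene was called higher under any of the 13 alternatives or without the 6 core genes of few counts (an alternative chosen after seeing the data). The core median of -0.16 was -0.10 with total-count scaling, -0.12 with upper-quartile scaling, -0.14 with a filter at 5 CPM on average, and -0.18 to -0.15 without 1 library. The RPS median of -0.19 was -0.13, -0.15 and -0.16 under those 3 settings, and the RPL median of -0.13 was -0.071 with total-count and -0.091 with upper-quartile scaling, and -0.16 to -0.12 without 1 library. Over all tested genes 5448 were called, 3549 with DESeq2 and 3072 to 5201 without 1 library. Total-count scaling moved the median of all genes to 0.07. Signs turned for members near 0: RPL26L1 (0.0294 with total-count, 0.00914 with upper-quartile scaling), RPL22 (0.00999 with total-count scaling) and RPLP1 (0.0247 and 0.00471). Without 1 library the ranges crossed 0 for RPL36AL (-0.00906 to 0.0437), RPL26 (-0.0252 to 0.27), RPL36A (-0.39 to 0.15) and RPLP1 (-0.0931 to 0.00860), as did the log2 change of the ratios RPS27L/RPS27 (-0.0411 to 0.00428) and RPL36AL/RPL36A (-0.12 to 0.40). With the replicate block 51 core genes were lower and 5465 genes were called in all; deviations of same-numbered libraries correlated at -0.0036 over tested genes and 0.118 over core members, and the labels do not say that a number marks a shared culture. Depth was not varied, and each group has 2 libraries.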
